A study of Mus musculus with 4 samples.

Results

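The genes described here are 7 genes that mark osteoclasts (Acp5, Ctsk, Calcr, Dcstamp, Ocstamp, Atp6v0d2 and Oscar) and the 3 genes of the ligand, receptor and decoy that control osteoclast formation (Tnfsf11, Tnfrsf11a and Tnfrsf11b). They were taken by symbol from the FPKM table, and all 10 were found among its 24532 genes. The table holds 4 RNA-seq libraries of knee articular cartilage from wild type C57BL/6 mice, male by the methods of the study, with chondrocyte given as the cell type. Young mice were 3 weeks old, and adult mice are given as 12 weeks old in the sample titles and as 14 weeks old in the sample characteristics, while the methods of the study describe younger adults. Injured cartilage was collected at day 3. The study describes a full-thickness cartilage injury (FTCI) made with a needle in the groove of the femur, whereas the sample titles name DMM surgery, which destabilizes the medial meniscus. Sham cartilage was labelled day 3 in young mice and days 3 to 14 in adult mice. Each of the 4 groups is 1 library made from pooled cartilage of several mice, so no value below has a replicate error and no test between groups can be made. Levels are in FPKM, the fragments of a gene scaled by transcript length and by library size, and can be set side by side between genes. Changes are log2 ratios of FPKM + 1, and the threshold for a change was 2-fold. Levels given 4 at a time run through the young pair, sham then injured, and then the adult pair, and paired ratios are given young first.

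Osteoclasts are the large multinucleated cells that resorb bone and calcified cartilage. They form from cells of the macrophage lineage when RANK (Tnfrsf11a), a receptor on the precursor, is bound by RANKL (Tnfsf11), which osteocytes, stromal cells, hypertrophic chondrocytes and activated lymphocytes make. Osteoprotegerin or OPG (Tnfrsf11b) is a secreted decoy receptor that takes up RANKL and so keeps it from RANK. Signals from RANK lead through TRAF6 and NF-kB to NFATc1, the transcription factor that switches on the genes of the mature cell.

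After injury, 5 of the 10 genes rose in young cartilage and 8 rose in adult cartilage, and none of them was lower by 2-fold. Of the 18181 genes above 0 in at least 1 library, 4.57% were 2-fold higher and 1.27% lower in young injured cartilage, and 6.90% were higher and 1.46% lower in adult injured cartilage. With a pseudocount of 5 FPKM, 1 of the 10 was 2-fold higher in young and 3 in adult cartilage, where the shares of all genes were 1.89% and 2.39%. At 3-fold, 0 were higher in young and 5 in adult cartilage, with shares of 2.02% and 2.43%. With no pseudocount, a setting chosen after the values were seen, 8 of the 10 were 2-fold higher in young and 9 in adult cartilage, where the shares were 11.3% and 19.1% of the 15334 genes above 0 in all libraries. The median log2 ratio of the 10 genes was 1.08 (young) and 1.59 (adult), and over all genes it was 0.00 and 0.14. Of the osteoclast genes, 6 had the larger ratio in adult mice under every pseudocount and scaling tried and Calcr did not, whereas Tnfsf11 and Tnfrsf11a had the larger ratio in young mice. Tnfrsf11b was the only member that was lower after injury, and it was so at both ages.

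**Figure D1:**
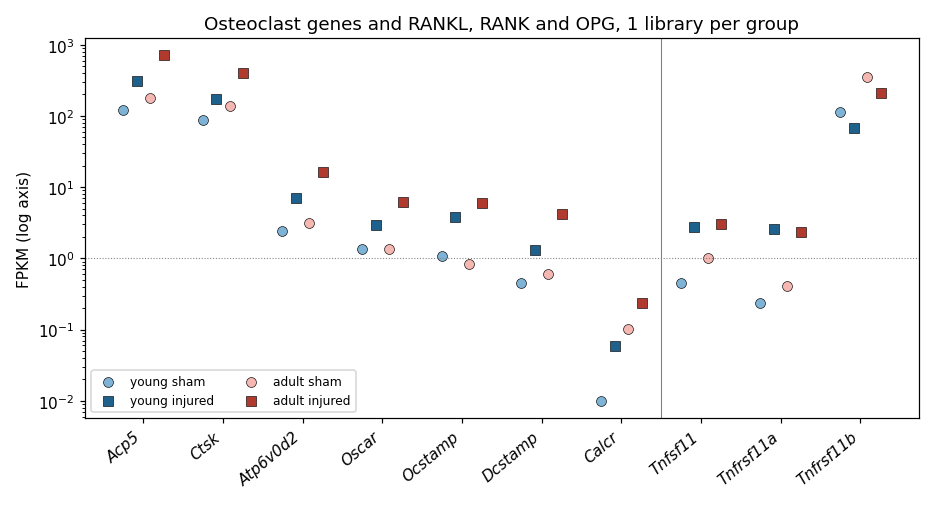
Level of each gene in FPKM on a log axis in the 4 libraries, 1 point per library (circles sham, squares injured, blue young, red adult). Every osteoclast gene is highest in adult injured cartilage, Calcr lies below 1 FPKM in all 4 libraries, and Tnfrsf11b is the gene that is lower in injured than in sham cartilage at both ages.

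Acp5 and Ctsk were the most abundant of the osteoclast genes. Acp5 (chromosome 9, 22126727 to 22135746 in the GRCm38.p6 build, which has the coordinates of mm10) encodes tartrate-resistant acid phosphatase, the enzyme stained to find osteoclasts. It was at 122.4 FPKM (sham) and 305.6 (injured) at the young age, and at 178.6 (sham) and 713.2 (injured) at the adult age. Both injured libraries lay above both sham libraries, and the log2 ratios after injury were 1.31 in young and 1.99 in adult mice. Ctsk (chromosome 3, 95499210 to 95509387) encodes cathepsin K, the protease that cleaves bone collagen. Its levels were 87.4 and 170.8 FPKM in young sham and injured cartilage and 135.9 and 403.3 FPKM in the adult pair. Its ratio of 1.56 in adult mice passed 2-fold and its ratio of 0.96 in young mice did not. Neither enzyme is confined to osteoclasts, since macrophages also make Acp5 and stromal cells make Ctsk. Acp5 overlaps 6530413G14Rik, which lies on the opposite strand, and the libraries were strand-specific. In these pooled tissue libraries, more cells of a type and more RNA per cell cannot be told apart.

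The genes of cell fusion had lower levels, and adult injured cartilage again held the highest. Dcstamp (chromosome 15, 39745930 to 39760938) and Ocstamp (chromosome 2, 165395450 to 165400394) encode membrane proteins needed for osteoclast precursors to fuse. Dcstamp was at 0.444 FPKM (sham) and 1.33 (injured) at the young age, and at 0.609 (sham) and 4.24 (injured) at the adult age. Adult injured cartilage stood above the other libraries, and the log2 ratios were 0.69 in young and 1.70 in adult mice. As the added 1 FPKM is larger than the sham levels, these ratios are smaller than the plain folds of FPKM. Those folds were 3.00 in young and 6.96 in adult mice. Adding 5 FPKM instead lowered the log2 ratios of Dcstamp to 0.22 (young) and 0.72 (adult). Its adult rise then fell short of 2-fold, so that call rests on the pseudocount. Ocstamp was at 1.08, 3.77, 0.843 and 5.91 FPKM, with log2 ratios of 1.20 and 1.91. With a pseudocount of 5 FPKM its ratios were 0.53 and 0.90, and neither reached 2-fold. Of the 31-base words in the Ocstamp transcripts, 5.46% also occur in another gene, the largest share among the 10 genes.

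Atp6v0d2 and Oscar were also highest in adult injured and next highest in young injured cartilage. Atp6v0d2 (chromosome 4, 19876838 to 19922566) encodes the d2 subunit of the proton pump of osteoclasts. It was at 2.40 FPKM (sham) and 7.15 (injured) at the young age, and at 3.15 (sham) and 16.5 (injured) at the adult age. Both injured libraries lay above both sham libraries, with log2 ratios of 1.26 in young mice and 2.08 in adult mice. With a pseudocount of 5 FPKM these were 0.71 and 1.40, so the young ratio no longer reached 2-fold. Oscar (chromosome 7, 3609813 to 3616157) encodes a collagen receptor that costimulates osteoclast precursors. Its levels were 1.34, 2.94, 1.36 and 6.24 FPKM, with nearly equal sham libraries. The ratio of 1.62 in adult mice passed 2-fold and that of 0.75 in young mice did not. The plain folds of FPKM were 2.20 in young and 4.58 in adult mice. Adding 5 FPKM instead lowered the log2 ratios of Oscar to 0.33 (young) and 0.82 (adult). Its adult call of 2-fold thus also rests on the pseudocount.

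Calcr (chromosome 6, 3685678 to 3764713), the calcitonin receptor of mature osteoclasts, was the lowest of the 10 genes. It was at 0.00997 FPKM (sham) and 0.0596 (injured) at the young age, and at 0.102 (sham) and 0.240 (injured) at the adult age. Multiplied by transcript length, 38.7% to 40.4% of the lowest FPKM values of each library lay within 0.05 of a whole step, so most did not. By chance 10% would for a step fixed beforehand, but each step was chosen to bring these same values close to whole steps. Fragment numbers are therefore rough, and they use the longest transcript of each gene. If 1 step is 1 fragment, these levels stand for about 1, 6, 12 and 23 fragments. The same reading gives about 23, 70, 38 and 217 fragments for Dcstamp and 64, 142, 77 and 294 for Oscar. Hence 6 of the 7 osteoclast markers were at 1 FPKM or more in adult injured cartilage, and Calcr, a defining marker of the mature cell, was not in any library.

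The 250 bases before the start site are shown for 3 osteoclast genes that rose in adult cartilage and for the ligand gene, since promoters are where the factors of this pathway bind. Among the 10 genes, 6 had at least 1 entry in the RefSeq promoter table of GRCm38.p6, which were Acp5, Ctsk, Calcr, Oscar, Tnfrsf11a and Tnfsf11. The sequences run 5′ to 3′ on the strand of the gene and end at the base before the start site. The bases from the start site on matched the beginning of an annotated transcript for Oscar, Tnfsf11 and the Acp5 site farthest downstream. For Ctsk and for the Acp5 site shown they did not, so no annotated transcript beginning was found there. Capitals mark matches on either strand to GGAAA, the core bound by NFAT factors, TGANTCA, the AP-1 site, GAGGAA, a core bound by PU.1, and CATGTG, the M-box core bound by MITF.
Ctsk, chr3:95498960-95499209, plus strand: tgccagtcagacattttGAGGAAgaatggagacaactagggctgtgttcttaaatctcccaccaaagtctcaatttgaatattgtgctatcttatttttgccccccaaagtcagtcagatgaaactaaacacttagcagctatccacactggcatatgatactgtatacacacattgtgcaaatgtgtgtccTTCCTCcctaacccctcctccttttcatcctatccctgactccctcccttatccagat
Oscar, chr7:3616158-3616407, minus strand: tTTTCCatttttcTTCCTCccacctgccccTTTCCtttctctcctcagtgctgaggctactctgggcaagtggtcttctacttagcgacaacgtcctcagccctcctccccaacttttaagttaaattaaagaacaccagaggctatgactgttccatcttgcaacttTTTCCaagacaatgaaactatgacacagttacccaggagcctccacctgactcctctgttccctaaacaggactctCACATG
Acp5, the start site that lies farthest upstream of 3 in the table, chr9:22135747-22135996, minus strand: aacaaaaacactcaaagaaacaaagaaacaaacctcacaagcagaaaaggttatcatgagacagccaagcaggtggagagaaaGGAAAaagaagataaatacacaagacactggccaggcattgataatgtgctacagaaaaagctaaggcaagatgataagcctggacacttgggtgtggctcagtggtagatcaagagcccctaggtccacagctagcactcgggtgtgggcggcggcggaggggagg
Tnfsf11, chr14:78308044-78308293, minus strand: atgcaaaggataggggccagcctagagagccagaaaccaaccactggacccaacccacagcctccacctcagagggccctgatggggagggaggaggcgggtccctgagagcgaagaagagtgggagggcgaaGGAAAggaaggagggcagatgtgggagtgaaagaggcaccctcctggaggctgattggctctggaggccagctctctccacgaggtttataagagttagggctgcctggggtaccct

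The window of Oscar held 3 matches to GGAAA, 1 to GAGGAA and 1 to CATGTG, the last of them 6 bases before the start site. The window of Acp5 shown held 1 match to GGAAA. Of the other Acp5 windows in the table, the middle one held 1 match to GGAAA and the one farthest downstream held 2 matches to GGAAA and 1 to CATGTG. In Ctsk there were 2 matches to GAGGAA, and in Tnfsf11 1 match to GGAAA. No AP-1 match stood in any of the 4 windows shown. The window of Tnfrsf11a, not shown, held no match of any kind. For Calcr, also not shown, 1 window held 1 match to GGAAA and the other held none of any kind. Among the 32851 windows of the same length in the table, 55.6% held GGAAA, 6.75% TGANTCA, 23.3% GAGGAA and 12.3% CATGTG, so the matches are a description of these letters only.

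Tnfsf11 (chromosome 14, 78277446 to 78308043), the RANKL gene, was low in sham cartilage and rose after injury at both ages. It was at 0.444 FPKM (sham) and 2.72 (injured) at the young age, and at 1.00 (sham) and 3.08 (injured) at the adult age, or about 26, 160, 69 and 177 fragments. Both injured libraries lay above both sham libraries and were close to each other. Its log2 ratios were 1.37 (young) and 1.03 (adult), or plain folds of FPKM of 6.13 and 3.08. In adult mice it no longer reached 2-fold after median-of-ratios scaling, with a log2 ratio of 0.88, or after quantile normalization, with 0.70. Tnfrsf11a (chromosome 1, 105780673 to 105849444), the RANK gene, had levels of 0.239, 2.61, 0.414 and 2.33 FPKM across those libraries, or about 32, 345, 64 and 301 fragments. It was the only member with its highest FPKM in young injured cartilage, although in TPM the log2 ratio of young to adult injured cartilage was -0.017. Its log2 ratios were 1.54 in young mice and 1.24 in adult mice. With a pseudocount of 5 FPKM they were 0.54 and 0.44, and those of Tnfsf11 were 0.50 and 0.43, so at these low levels the calls of both genes rest on the pseudocount. The adult ratio was 0.97 after quantile normalization and 1.14 after median-of-ratios scaling.

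Tnfrsf11b (chromosome 15, 54250619 to 54278484), the OPG gene, was abundant in all libraries. It was at 111.9 FPKM (sham) and 66.9 (injured) at the young age, and at 346.7 (sham) and 210.4 (injured) at the adult age. Both adult libraries lay above both young libraries, and each injured library lay below the sham library of its age. The log2 ratios after injury were -0.73 in young and -0.72 in adult mice, or plain folds of 0.598 and 0.607, which did not reach 2-fold.

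The ratio of RANKL to OPG transcripts, which a scaling factor for a whole library does not change, was 0.00397 (sham) and 0.0407 (injured) at the young age, and 0.00289 (sham) and 0.0147 (injured) at the adult age. OPG transcripts thus outnumbered those of RANKL per length in every library, by 252.0-fold, 24.6-fold, 346.3-fold and 68.2-fold in the same order. The ratio was 10.2 times higher in injured than in sham cartilage of young mice and 5.07 times higher in adult mice. With 1 FPKM added to both genes these folds were 4.28 and 3.36. The ratio of RANK to RANKL transcripts was 0.539 (young) and 0.413 (adult) without injury and 0.958 (young) and 0.755 (adult) with injury.

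**Figure D2:**
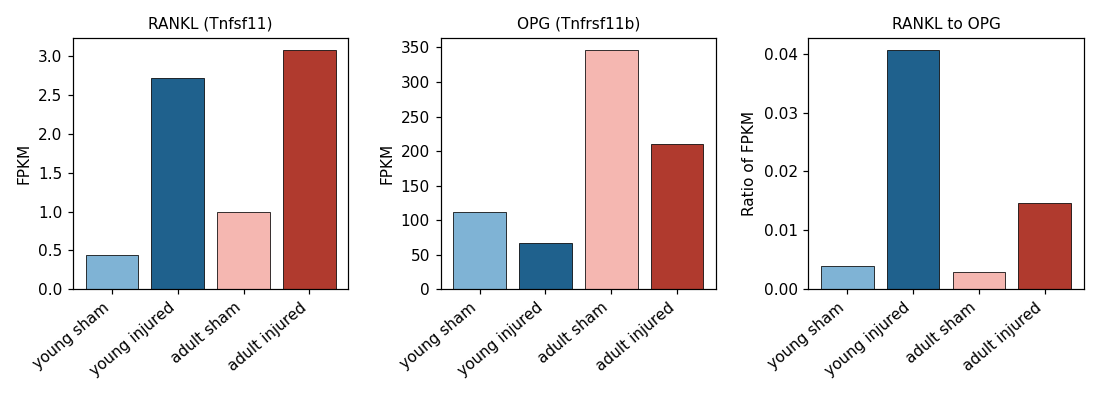
Levels of RANKL (Tnfsf11) and OPG (Tnfrsf11b) in FPKM and their ratio in the 4 libraries, 1 bar per library, with each axis starting at 0 and on its own scale. RANKL is higher and OPG lower in the injured library of each age, and the ratio is highest in young injured cartilage, at 0.0407.

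The change after injury was compared between the ages without a test, since each age has 1 pair of libraries. The adult sham library was labelled days 3 to 14 and the young one day 3. Age and sham timing therefore cannot be told apart in this comparison. The adult ratio minus the young ratio was 0.68 for Acp5, 0.60 for Ctsk, 0.82 for Atp6v0d2, 0.86 for Oscar, 0.71 for Ocstamp and 1.01 for Dcstamp on the log2 scale. It was -0.34 for Tnfsf11, -0.30 for Tnfrsf11a and 0.02 for Tnfrsf11b. The 6 osteoclast genes kept a larger adult ratio, and Tnfsf11 and Tnfrsf11a a larger young ratio, under every pseudocount and scaling tried. The smallest difference of the 6 was 0.31, that of Ctsk after median-of-ratios scaling. That scaling levels the middle of the genes of at least 1 FPKM in all libraries. The adult injury ratios of all genes were shifted, with a median of 0.23 across 10891 genes of at least 1 FPKM in all libraries, against -0.04 in young mice. For Calcr the difference was 0.10 and became -1.35 with no pseudocount, where the plain folds were 5.98 in young and 2.34 in adult mice and young sham cartilage held about 1 fragment. For Tnfrsf11b the sign changed with the scaling.

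**Figure D3:**
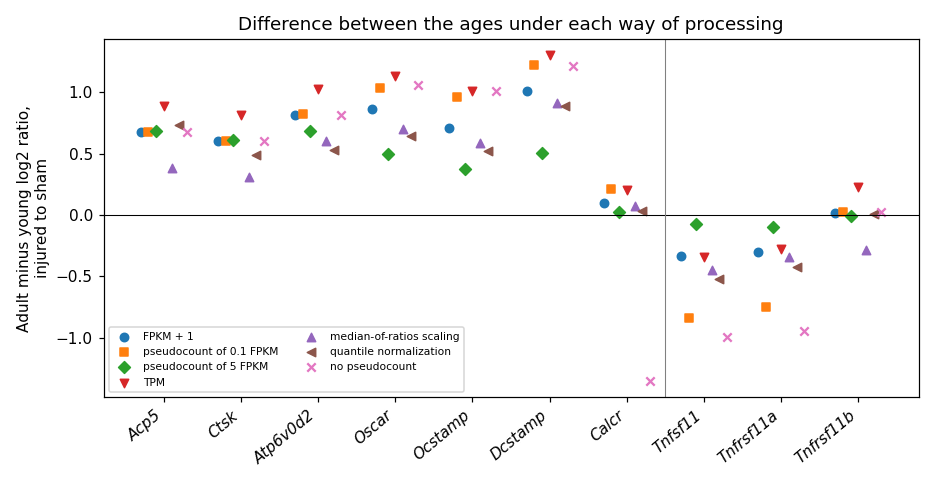
Log2 ratio of injured to sham cartilage in adult mice minus that in young mice, for each gene under 7 ways of processing (symbols). Acp5, Ctsk, Atp6v0d2, Oscar, Ocstamp and Dcstamp lie above 0 and Tnfsf11 and Tnfrsf11a below 0 under all of them, whereas Calcr and Tnfrsf11b lie on both sides.

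Between the injured libraries, none of the 10 genes was 2-fold higher in young than in adult cartilage and 5 were lower, where 3.09% of all genes were higher and 1.80% lower, a split that was 3.40% and 3.44% in TPM. The 5 were Acp5 (-1.22), Ctsk (-1.23), Atp6v0d2 (-1.10), Dcstamp (-1.17) and Tnfrsf11b (-1.64). Between the sham libraries, 1 of the 10 genes was 2-fold higher in adult cartilage, namely Tnfrsf11b with a log2 ratio of 1.62, and none was lower. Of all genes, 2.66% were higher and 10.6% lower in adult sham cartilage, where the median over the 10891 genes was -0.30, a split that became 5.35% and 5.55% after median-of-ratios scaling. The osteoclast genes had log2 ratios between -0.18 (Ocstamp) and 0.63 (Ctsk) in that comparison, which uses the same sham libraries as the injury comparisons. After median-of-ratios scaling they lay between 0.014 (Ocstamp) and 1.02 (Ctsk), so Ctsk then reached 2-fold. In adult injured against adult sham cartilage the split of all genes became 4.76% higher and 2.50% lower with the same scaling, and 7 members rose in place of 8.

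Other genes of the pathway were taken from fixed lists. Of 20 genes of RANK signalling to NFATc1, none was 2-fold changed by injury, with a median of -0.00 in young and of 0.40 in adult mice, the latter being 0.16 after median-of-ratios scaling and 0.11 after quantile normalization. Nfatc1 itself, named after its values were seen, was at 13.3 FPKM (sham) and 9.05 (injured) at the young age, and at 13.8 (sham) and 18.5 (injured) at the adult age, log2 ratios of -0.51 and 0.40. Map3k14, the NF-kB inducing kinase, had ratios of 0.95 and 0.82 and was also named after its values were seen.

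Of 10 genes of the costimulatory pathway, 6 rose in young and 6 in adult cartilage, and none was 2-fold lower. Tyrobp and Fcer1g, adaptors that carry immunoreceptor signals in osteoclasts as well as in macrophages and other myeloid cells, had nearly equal ratios at both ages, 2.73 and 2.61 for Tyrobp and 3.02 and 2.99 for Fcer1g. Trem2, a receptor that pairs with Tyrobp, was at 1.39, 38.3, 8.45 and 36.0 FPKM, ratios of 4.04 (young) and 1.97 (adult). Syk, the kinase that acts next, had ratios of 1.05 and 1.72, the former being 0.69 with a pseudocount of 5 FPKM. Of the 4 genes of the M-CSF axis, 2 rose in young and 3 in adult cartilage. Csf1r, the receptor for M-CSF, had ratios of 2.45 and 1.63, Spi1, which encodes PU.1, 1.88 and 2.17, and Csf1, the M-CSF gene, 0.47 and 1.08. The adult ratio of Csf1 was 0.83 after median-of-ratios scaling, 0.80 after quantile normalization and 0.82 with a pseudocount of 5 FPKM.

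Of 12 genes of acid secretion and resorption, 3 rose in young and 5 in adult cartilage, with medians of 0.71 and 0.83, which became 0.72 and 0.58 when scaled by the median of ratios, and 0.69 and 0.57 when quantile normalized. In young cartilage these were Mmp9, Slc9b2 and Tcirg1, a subunit of the proton pump with ratios of 1.34 and 0.88, and in adult cartilage Mmp9, Slc9b2, Snx10, Mmp14 and Itgb3. Mmp9, a gelatinase of osteoclasts and of neutrophils, was at 66.5, 227.4, 40.6 and 201.3 FPKM, ratios of 1.76 and 2.28. Slc9b2, a sodium and proton exchanger of osteoclasts, was at 1.81, 4.95, 2.20 and 13.2 FPKM, ratios of 1.08 and 2.15, the former being 0.98 after quantile normalization and 0.55 with a pseudocount of 5 FPKM. Snx10, a sorting nexin whose loss causes osteopetrosis, had ratios of 0.66 and 2.15, and Mmp14, a membrane-bound protease of many cells, 0.91 and 1.79. The adult ratio was the larger for 10 of the 12 genes, and for 8 after median-of-ratios scaling. Irf8, a transcription factor that restrains osteoclast formation and is also abundant in macrophages, had ratios of 1.29 and 1.62, which were 0.79 and 0.92 with a pseudocount of 5 FPKM.

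**Figure D4:**
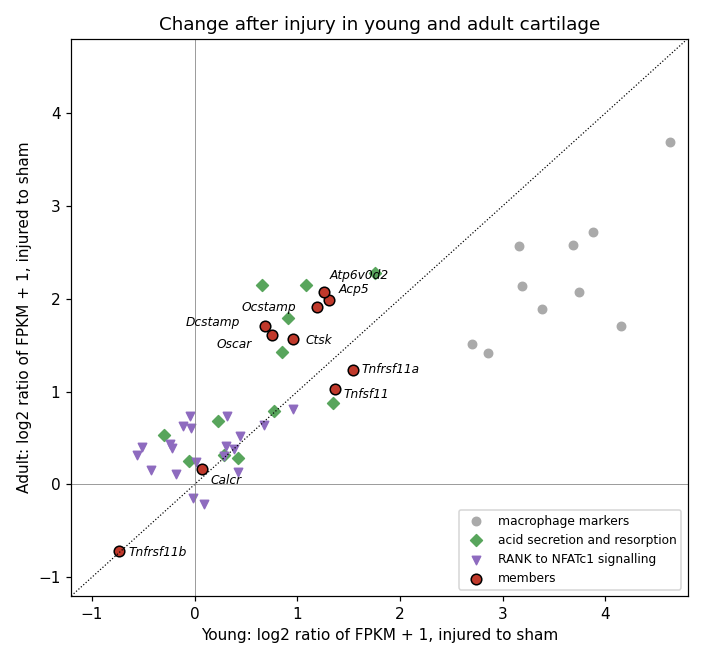
Log2 ratio of FPKM + 1 of injured to sham cartilage in young (x axis) and adult mice (y axis), 1 point per gene, with the dotted line marking equal ratios. Acp5, Ctsk, Atp6v0d2, Oscar, Ocstamp and Dcstamp lie above the line, Tnfrsf11a and Tnfsf11 below it, and the 10 macrophage markers lie below it at ratios of 1.41 or more.

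Macrophage markers also rose after injury, but with larger ratios in young than in adult mice. All 10 macrophage markers rose at both ages, with a median of 3.53 in young and of 2.11 in adult mice, and the young ratio was the larger for each of the 10 under every scaling. Their summed level was 193.3 FPKM (sham) and 2116 (injured) at the young age, and 322.1 (sham) and 1790.4 (injured) at the adult age, and none was at 0 in any library. Relative to Lyz2, the most abundant of them, Acp5 was at 0.865 (young) and 0.975 (adult) without injury and at 0.241 (young) and 0.654 (adult) with injury. Atp6v0d2 was at 0.0170 and 0.0172 of Lyz2 in the sham libraries and at 0.00563 and 0.0151 in the injured ones. Precursors of osteoclasts share most of these markers, and the part that macrophages have in the values of the 10 genes was not tested.

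Markers of bone cells, which make RANKL and OPG, were detected in all libraries. The 10 osteoblast and osteocyte markers summed to 829.0, 1541, 5815 and 6299.8 FPKM in the same order, with 2 rising in young and 3 in adult cartilage and 1 lower in adult cartilage. Ibsp, the most abundant, was at 4136 and 4218 FPKM in adult sham and injured cartilage, and it is also made by hypertrophic chondrocytes. The genes that rose were Col1a1 and Dmp1 in young and Col1a1, Runx2 and Phex in adult cartilage. Sost, an osteocyte gene, was the lower one in adult injured cartilage, at 0.459, 0.0915, 26.0 and 8.67 FPKM in the 4 libraries. The 4 hypertrophic chondrocyte markers did not share a pattern. Col10a1, the most abundant, was at 337.9, 302.2, 458.7 and 2446 FPKM. Mmp13, a collagenase, rose at both ages, with ratios of 4.17 and 4.55. Ihh had ratios of -0.61 and -1.04 and Pth1r of 0.04 and 0.31. T cells can also make RANKL, and none of 5 T cell markers reached 1 FPKM in any library, with a highest sum of 1.87 FPKM in adult injured cartilage. Cd3g was listed at 0 in young sham and Cd3e at 0 in adult sham cartilage. The part of these cells in the levels of Tnfsf11 and Tnfrsf11b was not tested.

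The libraries held cartilage and other tissues. All 8 chondrocyte markers were at 1 FPKM or more in each library, with sums from 12501 to 37440 FPKM. Summed levels over the 4 libraries ranged from 10.7 to 72.4 FPKM for 5 B cell markers, from 1187 to 2419 for 8 neutrophil markers, from 328.8 to 1113 for 6 muscle markers, from 3027 to 18397 for 6 erythroid markers and from 1266 to 3901 for 5 fibroblast and synovial markers.

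The genes whose pattern over the 4 libraries was nearest to that of the 7 osteoclast genes were Medag, Vav3, Ppp1r1b, Kcna6 and Itgb3, by the distance between centred log2 levels over the 8051 genes whose mean reached 5 FPKM. Medag, the nearest at a distance of 0.17, was at 5.70, 12.0, 7.06 and 26.4 FPKM. Itgb3, the integrin subunit by which osteoclasts attach to bone, was at 3.47, 7.07, 3.70 and 11.6 FPKM, at a distance of 0.24. Nearest to Tnfsf11 were Tcirg1, Il10rb, Pisd, Tagln2 and Arrb2, with distances from 0.16 to 0.18. Nearest to Tnfrsf11b were Selenbp1, Tgfbr3, Adck3, 1700047M11Rik and Slc20a1, where Selenbp1, at a distance of 0.04, was at 14.8, 8.28, 48.5 and 28.8 FPKM. With 4 libraries many genes share a pattern, and these names are a description of likeness only.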

How the data were processed

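RNA of articular cartilage was measured in 4 libraries, 1 pool of mice per group, by strand-specific poly-A RNA-seq. Values are FPKM per gene as deposited, calculated by the authors. The submitters' processing notes name HISAT2 2.1.0, StringTie 1.3.4d, STAR and SAMtools, with no role given in the sources used here. From the FPKM values used here, depth can be read only from steps in low genes, so no counting intervals are given. Groups came from the sample labels.

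The 10 genes were matched by symbol. Log2 ratios of FPKM + 1 were computed for 18181 genes above 0 in at least 1 library, and 2-fold was the threshold. With 1 library per group there is no test, p-value or error. The genes and lists were chosen with earlier results of these data known. From each list the genes changed at least 2-fold after injury with a mean of at least 5 FPKM were named, up to 4 by size, with the most abundant gene of each marker list and the 5 genes nearest in pattern. Markers of other cell types are given mainly as sums. Nfatc1, Map3k14, Runx2, Phex, Pth1r, Cd3g and Cd3e fall outside this rule and were chosen after their values were seen. Alternatives were pseudocounts of 0.1 and 5 FPKM, a filter at 1 FPKM, quantile normalization, TPM, scaling by the median of ratios and cutoffs at 1.5-fold or 3-fold. Some list results are not reported here. Promoter sequences are from RefSeq on GRCm38.p6. Python 3.11.15, numpy 2.4.6, pandas 2.3.3 and matplotlib 3.10.9 were used, and the calculations were tested on simulated data.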

Additional observations from a re-analysis of the deposited data

Results flagged for a closer look

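Nfatc1 had log2 ratios of opposite sign after injury, -0.51 (young) and 0.40 (adult). It was at 13.3 FPKM (sham) and 9.05 (injured) at the young age, and at 13.8 (sham) and 18.5 (injured) at the adult age, and the adult log2 ratio exceeded the young ratio by 0.91. With 1 library per group the difference was not tested, and neither ratio reached 2-fold. The adult ratio was 0.14 after median-of-ratios scaling and 0.16 after quantile normalization, and the median over the 10891 genes of at least 1 FPKM in all libraries was 0.23 in the adult comparison.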

How the results depend on the processing

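No paired analysis was possible because each group is 1 library without a replicate number, and for the same reason no replicate could be left out. A value of 1 library has no error, and genes near 1 FPKM, such as Dcstamp, Tnfsf11 and Tnfrsf11a in sham cartilage, depend on the pseudocount by construction. With a pseudocount of 5 FPKM, 1 gene was 2-fold higher in young injured (1.89% of all genes) and 3 in adult injured cartilage (2.39%), and between the injured libraries 3 were lower in young mice (0.787%). At 1.5-fold, 8 genes were higher (9.50%) and 1 lower (4.81%) in young injured cartilage, 1 was lower in adult injured cartilage (3.96%) and 2 were higher in adult than in young sham cartilage (6.54%). At 3-fold, 0 genes were higher in young injured (2.02%) and 5 in adult injured cartilage (2.43%), and between the injured libraries 1 was lower in young mice (0.528%). In adult against young sham cartilage, 2 genes were higher with a pseudocount of 0.1 FPKM (5.72%) and 2 after median-of-ratios scaling (5.35%). With no pseudocount, which was chosen after seeing the data, 3 were higher there (7.16%) and 8 in young injured cartilage (11.3%). With 1 FPKM added to both genes, the RANKL to OPG ratio was 0.0128 in young sham and 0.00576 in adult sham cartilage, and the RANK to RANKL ratio 0.858 and 0.706. The split of all genes in adult injured cartilage was 3.99% higher and 2.69% lower after quantile normalization, where 6 of the 10 genes were higher. Some values near 0 changed sign, and the cause was not tested. The median of the RANK signalling list in young mice was 0.00024 with a pseudocount of 0.1 FPKM and 0.019 after median-of-ratios scaling. The age difference of Tnfrsf11b was -0.0065 with a pseudocount of 5 FPKM and -0.28 after median-of-ratios scaling, and that of Calcr was -1.35 with no pseudocount. Between the sham libraries, Oscar was at -0.0013 in TPM, and Ocstamp at 0.014 after median-of-ratios scaling and 0.11 after quantile normalization. Between the injured libraries, Tnfrsf11a was at -0.017 in TPM. The chondrocyte median after adult injury was -0.15 after median-of-ratios scaling. Calcr and the T cell list have no value under the 1 FPKM filter. Among single genes, 403 log2 ratios kept their direction and their side of 2-fold, 15 reached 2-fold only under an alternative and 22 no longer reached it.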
